A study of Mus musculus with 15 samples.

Results

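The 6 control libraries of the series describe 2 starting states of one cell type, 3 from primary mouse articular chondrocytes kept with the solvent DMSO (DMSO) and 3 from the same kind of cell transfected with a control siRNA (siCtrl), and they were compared here with each other. They were chosen by their labels and column names alone, from 15 RNA sequencing libraries in 5 groups, and the 2 count tables that hold them were joined by Entrez gene ID and normalized together. All 15 came from articular chondrocytes of ICR mice at passage 0, taken by collagenase from the femoral condyles and tibial plateaus of pups a few days old and grown in DMEM with fetal bovine serum, penicillin and streptomycin. The DMSO cells carried the solvent for 108 h and were the controls of cells given 10 μM of the tankyrase inhibitors XAV939 or IWR-1 for the same time. The siCtrl cells received a negative control siRNA with the transfection reagent METAFECTENE PRO, were the controls of cells transfected with siRNAs against Tnks and Tnks2 (siTnks/2), and have no stated harvest time. No cytokine is named in the labels for either group. Each group had 3 biological replicates, and whether replicates shared a litter or a pool of pups is not stated. The siCtrl and DMSO cells differ in the agent and its delivery, and may differ in culture time and in any preparation or sequencing batch that followed the 2 sets, and these cannot be told apart.

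Articular chondrocytes build cartilage from fibrils of collagen types II, IX and XI filled with aggrecan, under the transcription factor SOX9 with its partners SOX5 and SOX6. In culture they lose this output readily: spreading on plastic favours fibroblast-type collagens and an actin cytoskeleton, and inflammatory signals such as interleukin-1 act through NF-kappaB to raise chemokines, nitric oxide synthase 2 and matrix-degrading proteases. Low oxygen stabilises the hypoxia-inducible factors (HIF), which raise glycolytic enzymes and genes such as Vegfa.

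Total gene counts lay between 26857070 and 31254278 in the siCtrl libraries and between 31046712 and 36342916 in the DMSO libraries. Values below are TMM-scaled CPM (counts per 1e+06 library counts), and a floor of 3 counts lay between 0.0825 and 0.112 CPM in the 6 libraries. Both groups carried the markers of the cell type on the label. Col2a1, the type II collagen chain, held 6.07% to 8.21% of all counts in the siCtrl libraries. Among the DMSO libraries it had the most counts only in replicate 2, at 2.73%, and fibronectin, Fn1, had the most in replicates 1 and 3. The DMSO libraries differed with exon length, replicate 3 in the opposite direction to replicates 1 and 2. In replicate 3 the deviation of a gene from the mean of the other libraries of its group rose with its exon length. The Spearman coefficient was 0.76 over 8507 genes, against -0.51 and -0.73 in the other DMSO libraries. In the siCtrl libraries it lay between -0.23 and 0.32. In DMSO replicate 3, genes over 6000 bases of exon lay at a median of 0.39 above the mean of the other DMSO libraries, on the log2 scale. Genes under 1500 bases lay at a median of 0.43 below it. Between the groups, genes over 6000 bases had a median log2 fold change of -0.21 and genes under 1500 bases one of 0.12. Each deviation was taken against the other libraries of the group, so these values do not tell which DMSO library is the unusual one. The mean log2(CPM + 1) of 30 ribosomal protein genes was lowest in replicate 3 of DMSO (9.45, 9.67 and 9.05), XAV939 (9.76, 9.94 and 9.42) and IWR-1 (9.76, 9.72 and 9.50). It was 9.26, 9.24 and 9.18 in siCtrl. The part of exon length in the results was not tested beyond the values given with and without DMSO replicate 3.

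Between the groups, 6418 of 13777 genes tested (46.6%) passed an adjusted p-value of 0.05 in edgeR's quasi-likelihood test with Benjamini-Hochberg adjustment. Of these, 3285 (23.8% of those tested) were higher in DMSO and 3133 (22.7%) lower, with a median log2 fold change over all genes of 0.000503. A fold change above 3 was reached by 1353 genes, of which 1347 passed, 712 higher and 635 lower in DMSO. The study set stricter limits for its differentially expressed genes (DEGs), an adjusted p-value under 1e-05 together with a difference of more than 3-fold, and at these 202 genes passed (1.47%), 144 higher (1.05%) and 58 lower (0.421%). Without DMSO replicate 3 there were 8297 calls and 287 DEGs, and without siCtrl replicate 1 there were 4782 calls and 11 DEGs. In a model of all 15 libraries, which gave 6857 calls (48.0%) for DMSO over siCtrl, 1432 genes (10.0%) differed by more than 3-fold between the controls. The same count was 189 for siTnks/2 over siCtrl, 291 for XAV939 over DMSO and 901 for IWR-1 over DMSO, with 16.0%, 21.0% and 39.5% of genes called. By this count the control states were further apart than any treated group was from its own control, and the difference between these counts was not tested. By the root mean square of log2 differences, a siCtrl and a DMSO library were 1.07 to 1.15 apart, 2 libraries of one control group 0.296 to 0.511 apart.

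**Figure D1:**
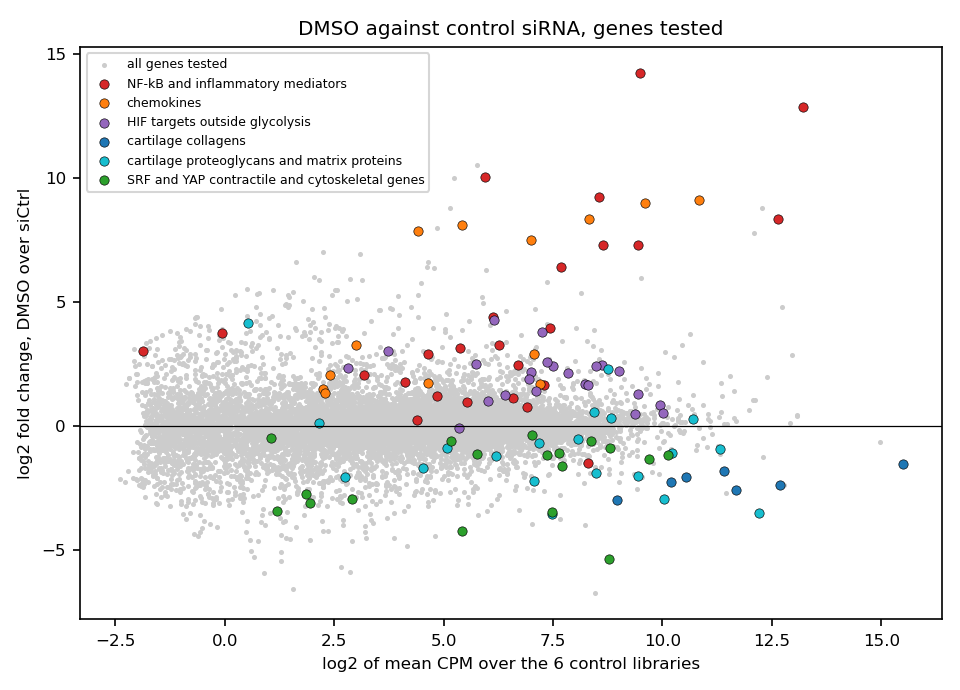
The log2 fold change of DMSO over siCtrl for each gene tested (vertical axis) is plotted against the log2 of its mean CPM over the 6 control libraries (horizontal axis), with 6 gene lists in colour. Chemokines and the inflammatory mediators other than Csf1 lie above the line, with Saa3 at 12.86, and cartilage collagens below it; the topmost point, Nos2, has 1 count in the siCtrl libraries and its fitted value is no bound.

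The promoters of 3 genes with large differences between the groups are shown because they hold a motif of NF-kappaB (Cxcl1, Il6) or of HIF (Car9), and were picked for that. Each is the RefSeq window from 250 bases before to 50 bases after the gene start on GRCm38.p6, and capitals mark the motif. The motif for NF-kappaB was GGGANNNNCC and the motif for HIF was ACGTG, each searched on both strands with overlaps allowed. Cxcl1 (chr5:90890995-90891294, plus strand) holds 3 matches, which start 90, 71 and 70 bases before the gene start. Il6 (chr5:30012864-30013163, plus strand) holds 2 overlapping matches, 44 and 43 bases before it. Car9 (chr4:43506776-43507075, plus strand) holds 1, 18 bases before it.
Cxcl1: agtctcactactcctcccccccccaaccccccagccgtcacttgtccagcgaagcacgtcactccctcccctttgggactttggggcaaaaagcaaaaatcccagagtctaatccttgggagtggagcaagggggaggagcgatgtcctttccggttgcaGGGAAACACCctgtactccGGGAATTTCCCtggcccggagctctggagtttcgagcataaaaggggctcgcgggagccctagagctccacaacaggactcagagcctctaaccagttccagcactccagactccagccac
Il6: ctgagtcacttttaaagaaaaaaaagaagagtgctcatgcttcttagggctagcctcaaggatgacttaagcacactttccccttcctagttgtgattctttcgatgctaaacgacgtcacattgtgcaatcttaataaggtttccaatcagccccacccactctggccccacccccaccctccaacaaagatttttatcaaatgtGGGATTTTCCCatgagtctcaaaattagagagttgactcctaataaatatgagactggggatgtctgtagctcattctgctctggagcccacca
Car9: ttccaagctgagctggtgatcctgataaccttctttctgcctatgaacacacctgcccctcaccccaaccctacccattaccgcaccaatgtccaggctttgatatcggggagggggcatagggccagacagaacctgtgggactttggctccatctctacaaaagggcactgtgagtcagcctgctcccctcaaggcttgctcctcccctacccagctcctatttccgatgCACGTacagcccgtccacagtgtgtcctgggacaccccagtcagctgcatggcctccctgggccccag
The NF-kappaB motif was in 11 of the 19 inflammatory mediators with a window (57.9%) and in 4 of 10 chemokines (40.0%), against 22.9% of 27025 genes. The HIF motif was in 12 of 18 HIF targets outside glycolysis (66.7%) and 12 of 17 glycolysis genes (70.6%), against 21.8% of all. The same search found no NF-kappaB motif in the windows of Lcn2, Saa3 and Mmp3. The lists name genes of these pathways and were chosen with the results known. A share above that of all genes was therefore likely beforehand and says nothing about the difference between the groups. Members with a motif include Csf1, which was lower in DMSO, and Il1rn and Pfkm, which were not called. These are matches of letters, and binding was not measured.

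Counts for gene lists are to be read beside the 23.8% higher and 22.7% lower of all genes tested. Inflammatory mediators of the NF-kappaB pathway stood far above siCtrl in DMSO. Of 26 genes listed, 25 were tested, 23 were higher and 1 was lower, and the counts were 23 and 1 with any one library left out. The median log2 fold change was 3.13 (3.25 with genes of 3 counts or fewer in siCtrl at their bound). Nos2, Il6 and Tnf passed the filter on low counts through DMSO alone, so the count of higher genes among those tested partly follows from the filter. Nos2, the inducible nitric oxide synthase, was at 1615, 1209 and 1452 CPM in the DMSO libraries and had 1 count in all of the siCtrl libraries together, against 139989 in DMSO. The ratio of its levels was 129957, with an exact 95% interval of 23324 to 5133080 that covers counting error only. Saa3, an acute-phase serum amyloid A, was at 20477, 23851 and 12724 CPM against 3.03, 2.45 and 2.00, a log2 fold change of 12.86, SE 0.40, edgeR adjusted p = 6.59e-07. Such values, given in parentheses from here on, are log2 fold changes of DMSO over siCtrl with their standard error (SE). Both genes were thus near absence in siCtrl and abundant in DMSO, with every DMSO library far above every siCtrl library.

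Il6, the gene of interleukin-6, reached 107, 107 and 154 CPM in DMSO against 0.0313, 0.111 and 0.0308 in siCtrl, where it had 5 counts in all (log2 fold change 10.02, SE 0.30, edgeR adjusted p = 5.01e-07). Ptges, the inducible prostaglandin E synthase, was at 345, 301 and 335 against 19.97, 20.3 and 22.5 CPM (3.96, SE 0.11, edgeR adjusted p = 2.91e-07). Ptgs2, the inducible cyclooxygenase that feeds it, differed less, with 212, 161 and 345 against 55.1, 105 and 68.4 CPM (1.65, SE 0.32, edgeR adjusted p = 0.00351). The iron-binding lipocalin Lcn2 was at 12910.2, 15950.1 and 9118 against 31.0, 57.2 and 29.7 CPM, 322-fold higher, and haptoglobin, Hp, at 769.8, 904 and 578 against 1.16, 1.45 and 1.02, 596-fold higher. Steap4, a metalloreductase, was 158-fold higher and C3, the third complement component, 158-fold. Genes that restrain the same pathway were higher too. Nfkbia, the inhibitor that holds NF-kappaB in the cytoplasm, was at 148, 148 and 121 against 13.4, 17.4 and 13.04 CPM (3.25, SE 0.15, edgeR adjusted p = 3.09e-06) and Zc3h12a, an RNase that cuts cytokine messages, was at 136, 130.2 and 136 against 5.44, 7.02 and 6.46 (4.40, SE 0.12, edgeR adjusted p = 2.91e-07). Csf1, the macrophage growth factor, was the member that was lower, at 162, 152 and 186 against 478, 415 and 504 CPM (-1.48, SE 0.12, edgeR adjusted p = 4.22e-05). The interleukin-1 antagonist Il1rn did not pass, at 19.7, 20.7 and 28.4 against 25.3, 7.50 and 25.2 CPM, and overlapped between the groups. Il1b was not tested, with 3 counts in DMSO and 0 in siCtrl. Tnf was higher but low in level, with 53 counts in DMSO and 1 in siCtrl (edgeR adjusted p = 0.000482), a ratio of 49.2 with an exact 95% interval of 8.46 to 1980 from counting alone.

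Chemokines, which guide leukocytes into tissue, were higher as well. Of 15 listed, 13 were tested and 13 were higher in DMSO, with a median of 3.26, and 13 were called with any one library left out. Ccl20, with at most 0.186 CPM in siCtrl, passed the filter through DMSO alone, so this count too partly follows from the filter. Ccl2, which draws monocytes, was at 658, 676 and 568 CPM in DMSO and 1.75, 1.56 and 2.34 in siCtrl (log2 fold change 8.34, SE 0.19, edgeR adjusted p = 2.91e-07), and its neighbour Ccl7 at 258, 286 and 225 against 1.44, 0.742 and 1.81 (7.50, SE 0.26, edgeR adjusted p = 1.04e-06). The neutrophil chemokines Cxcl1 and Cxcl5, whose genes lie close together on chromosome 5, were 513-fold and 555-fold higher, Cxcl5 at 3702, 3804 and 3400.0 against 4.13, 8.80 and 6.61 CPM (9.12, SE 0.31, edgeR adjusted p = 1.04e-06). Ccl20, a ligand of CCR6, was at 48.6, 49.2 and 29.8 against 0.156, 0.186 and 0.0308 CPM, and Ccl5 at 19.5, 14.6 and 9.31 against 0.969, 0.631 and 2.71. In all of these genes the groups did not overlap, which held for 58.0% of all genes tested.

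Of 13 matrix metalloproteinases 8 were higher and 2 lower, with a median of 1.09. The stromelysin Mmp3 was at 9654, 9661 and 10368 CPM in DMSO against 14.5, 35.0 and 17.2 in siCtrl, 445-fold higher (log2 fold change 8.80, SE 0.41, edgeR adjusted p = 3.64e-06). The collagenase Mmp13, which cuts type II collagen and lies near Mmp3 on chromosome 9, was at 13902, 13128 and 12355 against 498, 422 and 479.8 CPM (4.81, SE 0.15, edgeR adjusted p = 7.92e-07), so it was already present in siCtrl. The gelatinases Mmp9 and Mmp2 were 32.6-fold and 2.12-fold higher, and Mmp10 3.22-fold. Mmp16 was lower, at 7.81, 7.51 and 10.6 against 31.4, 26.1 and 35.5 CPM (-1.84, SE 0.17, edgeR adjusted p = 9.01e-05), and so was Mmp28.

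The ADAMTS proteases and their inhibitors were mixed, with 7 of 13 tested members higher and 4 lower, and a median of 0.54. Adamts4 and Adamts5, the main aggrecan-cutting enzymes, were at 8.58, 11.3 and 13.002 against 5.88, 2.97 and 5.72 CPM and 135, 115 and 129 against 82.6, 62.2 and 82.0 CPM, changes of 2.23-fold and 1.67-fold. Adamts7, which cuts COMP, differed more (log2 fold change 3.04, SE 0.15, edgeR adjusted p = 4.13e-06). The protease inhibitors parted: Timp1 was at 1810.2, 1655 and 1231 against 347, 349 and 379 CPM (2.13, SE 0.16, edgeR adjusted p = 2.97e-05), while Timp3, which inhibits ADAMTS enzymes and stays bound to matrix, was at 727, 649.8 and 896 against 4888, 4631 and 5158 (-2.69, SE 0.15, edgeR adjusted p = 8.92e-06). Without DMSO replicate 1, 2 of the list were lower. Timp1 and Timp3 each overlap a synapsin gene on the genome, Syn1 and Syn3.

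**Figure D2:**
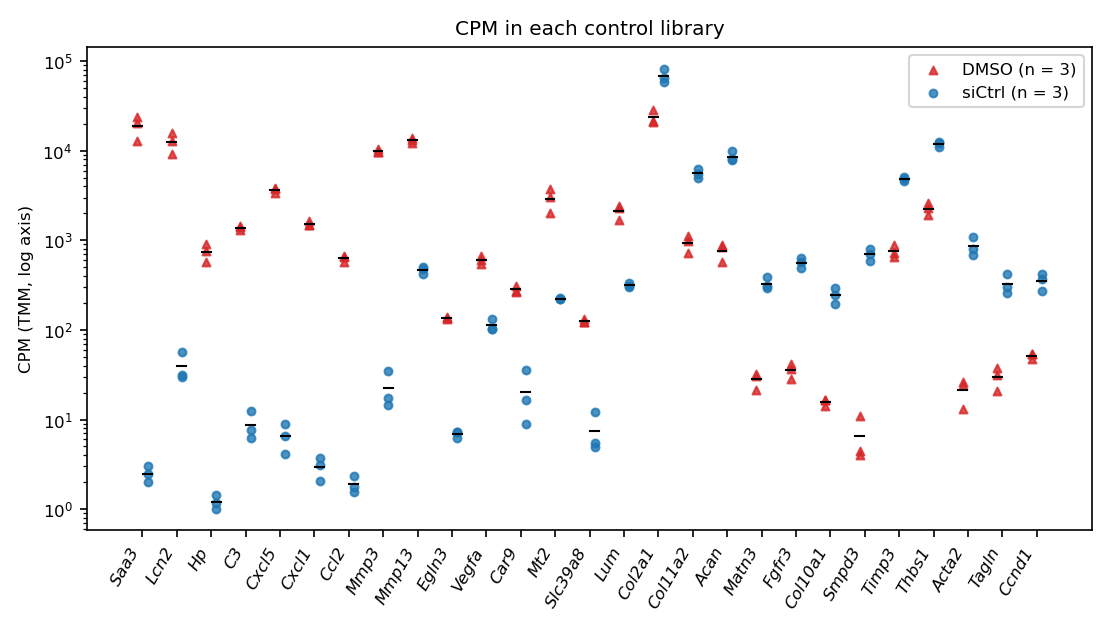
CPM on a log axis in each of the 3 DMSO (triangles) and 3 siCtrl (circles) libraries for 27 genes named in the text, with a bar at each group mean. The groups do not overlap for any of them, which held for 58.0% of all genes tested and was a condition for naming some of the genes. Saa3 was at 12724 to 23851 against 2.00 to 3.03 CPM, and Ccnd1 at 47.1 to 54.0 against 269.9 to 419.9 CPM.

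Genes raised by low oxygen were higher in DMSO almost throughout. Of 24 HIF targets outside glycolysis, 23 were higher and Narf was not called, with a median of 2.15, and 23 were called with any one library left out. Egln3, a prolyl hydroxylase that marks HIF for destruction and is itself a HIF target, was at 132, 138 and 135 CPM against 7.19, 7.16 and 6.15, a log2 fold change of 4.29, SE 0.10, edgeR adjusted p = 2.91e-07. Its relative Egln1 was at 396, 388 and 334 against 82.1, 103 and 70.9 CPM (2.12, SE 0.15, edgeR adjusted p = 2.58e-05). Both hydroxylases were higher in every DMSO library than in any siCtrl library.

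Vegfa, the vascular growth factor, was at 672, 540.5 and 608 against 103, 132 and 103 CPM (2.43, SE 0.14, edgeR adjusted p = 8.92e-06), Bnip3, a mitophagy receptor, at 867, 892 and 787 against 169, 226 and 156 (2.21, SE 0.16, edgeR adjusted p = 2.35e-05) and Ndrg1 at 699.8, 653 and 649.9 against 127, 112 and 125 (2.46, SE 0.10, edgeR adjusted p = 1.95e-06). Car9, a membrane carbonic anhydrase, was at 311, 275 and 263 CPM in DMSO (3.80, SE 0.44, edgeR adjusted p = 0.000278), and in siCtrl it varied between libraries, at 16.6, 35.5 and 8.98. Ddit4, an inhibitor of mTORC1, was 5.31-fold higher.

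Glycolysis genes differed less in size, with 16 of 17 higher, Pfkm not called, and a median of 0.95. The glucose transporter Slc2a1 was 2.74-fold higher (699, 634 and 624 against 228, 280.5 and 206 CPM), the lactate exporter Slc16a3 3.77-fold and Gpi1, the phosphoglucose isomerase, 2.79-fold. Ldha, lactate dehydrogenase A, was at 5074, 5049 and 3845 against 1700.2, 1920.3 and 1629 CPM (1.41, SE 0.15, edgeR adjusted p = 0.000183). Gapdh, often used as a reference gene, was at 6432, 6649 and 4271 against 2761, 2871 and 2670.4 CPM (1.06, SE 0.18, edgeR adjusted p = 0.00197). Of 33 nuclear-encoded genes of the respiratory chain and ATP synthase, 2 were higher and 13 lower, with a median of -0.15 and small sizes, such as -0.54 for Atp5b (586, 612 and 505 against 843, 775 and 852 CPM). Between 7 (without siCtrl replicate 1 or 3) and 14 of these were lower with one library left out, and 5 were higher without DMSO replicate 3 and 0 without any other library.

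The metal and antioxidant genes were next. Of 19 listed, 18 were tested, 13 were higher and 0 lower, with a median of 0.92. Metal-handling genes stood high among them, with Mt2, a metallothionein, at 3034, 3714 and 2042 against 219.5, 224 and 226 CPM (3.71, SE 0.22, edgeR adjusted p = 1.07e-05) and the zinc importer Slc39a8 at 121, 133 and 123 against 4.97, 12.2 and 5.41 (4.07, SE 0.32, edgeR adjusted p = 4.14e-05). Hmox1, heme oxygenase 1, was 3.06-fold higher and Srxn1 2.75-fold. Nqo1, a classical NRF2 target, did not pass, at 52.3, 55.8 and 67.5 against 65.4, 60.2 and 71.8 CPM. Fth1, the ferritin heavy chain, was at 15247, 16120.1 and 10764 against 1854, 1993 and 1979.9 CPM (2.85, SE 0.19, edgeR adjusted p = 1.70e-05), while the light chain Ftl1 did not pass, at 3057, 3322 and 2512 against 2909, 2608 and 2791. Without DMSO replicate 3, 2 of the list were lower.

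Of 20 immediate-early genes tested 14 were higher and 1 lower, with a median of 1.03. Ier3 was at 692, 658 and 602 against 36.4, 62.0 and 35.3 CPM (3.87, SE 0.23, edgeR adjusted p = 1.10e-05), and the AP-1 members Jun and Junb were 3.33-fold and 4.15-fold higher. Fos was at 19.5, 16.5 and 18.6 against 5.72, 11.8 and 4.89 CPM, with siCtrl replicate 2 well above the other siCtrl libraries. Arc was lower, at 2.05, 0.986 and 1.47 against 7.63, 13.7 and 11.6 CPM (-2.82, SE 0.30, edgeR adjusted p = 0.000182).

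Against these, the cartilage matrix was lower in DMSO, and the collagens of the cartilage fibril were lower without exception in the list. All 7 were called lower, with a median of -2.27, and 7 of 7 with any one library left out. Col2a1 was at 21653, 28817 and 21172 CPM in DMSO against 64947, 81853 and 58352 in siCtrl, 2.86-fold lower (log2 fold change -1.52, SE 0.22, edgeR adjusted p = 0.000804), so it remained an abundant message in both. The chains that join it in the fibril differed more: Col11a1 was at 1733, 2059 and 2640.0 against 10957, 11761 and 10280.0 CPM (-2.36, SE 0.18, edgeR adjusted p = 3.84e-05), Col11a2 at 720.4, 977 and 1117 against 5558, 6249 and 4957 (-2.57, SE 0.19, edgeR adjusted p = 3.13e-05). The 3 chains of type IX collagen, which coats the fibril, were 3.47-fold (Col9a1), 4.82-fold (Col9a2) and 4.14-fold (Col9a3) lower, and Col27a1 7.97-fold. None of the 7 reached the DEG limits.

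Of 21 cartilage proteoglycans and matrix proteins, 20 were tested, 13 were lower and 3 higher, with a median of -1.01. Acan, the core protein of aggrecan, was at 572, 887 and 847 CPM in DMSO against 7958, 9827 and 8057 in siCtrl, 11.2-fold lower (-3.49, SE 0.21, edgeR adjusted p = 1.07e-05). Matn3 and Matn1, matrilins that link collagen and aggrecan, were at 21.3, 32.1 and 30.9 against 309, 388 and 291 CPM (-3.55, SE 0.19, edgeR adjusted p = 6.49e-06) and 159, 378 and 195 against 1889, 2079 and 1642 CPM (-2.94, SE 0.32, edgeR adjusted p = 0.000188). Hapln1, the link protein that fixes aggrecan to hyaluronan, was 3.98-fold lower and Comp 1.89-fold. Not every matrix gene followed. Prg4, the lubricin of the cartilage surface, was higher, at 555, 465 and 1139 against 144, 72.9 and 224 CPM (2.29, SE 0.46, edgeR adjusted p = 0.00433), Prelp 1.48-fold higher, and Fmod and Epyc were not called, Fmod at 1909, 1838 and 1665 against 1491, 1313 and 1697 CPM and Epyc at 575, 593 and 335 against 387, 485 and 339. Without DMSO replicate 3, which has the highest Prg4 level, its log2 fold change was 1.80, and 5 of the list were higher and 12 lower.

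The transcription factors of the lineage had a median closer to 0 than that of the collagens. Of 15, 5 were lower (33.3%) and 1 higher (6.67%), with a median of -0.23, against 22.7% and 23.8% of all genes tested. Without DMSO replicate 3, 8 were lower with a median of -0.39. Sox9 was at 102, 121 and 119.6 CPM against 175, 205 and 179 (-0.71, SE 0.11, edgeR adjusted p = 0.00106), Sox6 at 53.5, 65.3 and 68.4 against 127, 128 and 129 (-1.04, SE 0.11, edgeR adjusted p = 0.000143), and Sox5 did not pass, at 48.5, 41.4 and 69.2 against 49.6, 52.8 and 50.4. Runx2, the factor of hypertrophy and bone, did not pass either, at 34.1, 33.3 and 40.5 against 34.3, 32.1 and 31.6. Zbtb20 and Nkx3-2 were lower and Barx2 higher, the last at 3.77, 3.83 and 2.55 against 0.0938, 0.334 and 0.215 CPM.

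Genes of hypertrophy and mineralization were lower in 11 of 17 tested and higher in 3, with a median of -1.46. Col10a1, the collagen of hypertrophic cartilage, was at 16.5, 14.2 and 16.7 against 244, 294 and 196 CPM (-3.95, SE 0.17, edgeR adjusted p = 2.57e-06), and its gene overlaps Nt5dc1. Smpd3, a sphingomyelinase needed for mineralization, had the lowest fold change of all genes tested, at 3.98, 10.99 and 4.43 against 793, 713 and 583 CPM (-6.73, SE 0.42, edgeR adjusted p = 1.34e-05). Ihh, the growth plate hedgehog, was at 0.123, 0.203 and 0.191 against 4.63, 2.41 and 3.11 CPM and the osteoblast factor Sp7 at 1.68, 2.12 and 1.91 against 16.1, 12.5 and 13.8 (-2.85, SE 0.16, edgeR adjusted p = 7.65e-06). The 3 higher members were Mmp13, Spp1 and Enpp1, with osteopontin, Spp1, at 10431, 8847 and 6278 against 1519, 3147 and 1816 CPM (1.98, SE 0.31, edgeR adjusted p = 0.00118), and Enpp1, at 58.8, 52.9 and 90.9 against 44.6, 42.2 and 50.8 CPM, lost its call when DMSO replicate 1 or any one siCtrl library was left out.

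Fibroblast-type matrix genes went in both directions. Of 23, 11 were higher and 4 lower, with a median of 0.35. Type I collagen was split, with Col1a1 2.08-fold higher (6089, 5469.8 and 6382 against 3132, 1838 and 3658 CPM) and Col1a2 not called (3112, 3307 and 4136 against 3423, 2096 and 3699.8), and Col3a1 was 2.32-fold higher. The small proteoglycans Lum and Dcn, common in fibrous tissue, differed most, Lum at 2408, 2319 and 1697 against 299.8, 309 and 334 CPM (2.77, SE 0.16, edgeR adjusted p = 8.78e-06) and Dcn at 3711, 3615 and 2663 against 529, 651 and 493 (2.58, SE 0.18, edgeR adjusted p = 2.15e-05). Fap, fibroblast activation protein, was at 36.8, 40.5 and 39.6 against 7.28, 7.76 and 8.03 (2.33, SE 0.10, edgeR adjusted p = 2.32e-06). Thrombospondin 1, Thbs1, went the other way, at 2599, 1924 and 2268 against 11117, 12102 and 12447 CPM (-2.39, SE 0.16, edgeR adjusted p = 1.74e-05), as did S100a4, Col6a3 and Fn1. Without DMSO replicate 1 or siCtrl replicate 3, 2 of the list were lower.

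The contractile and cytoskeletal targets of SRF and YAP were lower in DMSO in 18 of 20 genes and higher in 0, with a median of -1.34, and 18 or 19 were called lower with any one library left out. Acta2, smooth muscle actin, was at 26.3, 24.1 and 13.1 CPM in DMSO against 797, 1086 and 694 in siCtrl, 40.4-fold lower (-5.34, SE 0.31, edgeR adjusted p = 9.61e-06). Tagln was at 38.0, 31.1 and 20.8 against 303, 417 and 261 CPM (-3.45, SE 0.26, edgeR adjusted p = 3.29e-05) and the myosin light chain Myl9 at 5.39, 4.79 and 2.80 against 82.7, 103 and 58.6 (-4.21, SE 0.29, edgeR adjusted p = 2.02e-05). Cnn1 and Cnn2, calponins, were 6.71-fold and 3.05-fold lower. The strict CArG box, CCWWWWWWGG with W for A or T, was searched as the SRF site. It was in 5 of 15 members with a window (33.3%), Cnn2, Myl9, Srf, Vcl and Acta1, against 1.81% of 27025 genes. Acta2 and Cnn1 had no strict match in their windows. Forms with a G or C in the core were not searched for, and the Acta2 window holds such forms, ccctatatgg and ccttgtttgg. The list names known SRF and YAP targets and was chosen with the results known, so its share says nothing about the groups.

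Growth factor genes were called in both directions, beside 23.8% higher and 22.7% lower over all genes tested. The shares were 33.3% higher and 22.2% lower for FGF receptors and ERK feedback. They were 28.1% and 43.8% for BMP, TGF-beta and IGF signalling. Among 18 genes of FGF receptors and ERK feedback, 6 were higher and 4 lower: Fgfr3, which slows chondrocyte growth, was at 28.5, 41.996 and 36.4 against 573, 632 and 492 CPM (-3.99, SE 0.18, edgeR adjusted p = 2.92e-06), Fgfr1 was not called, and the ligand Fgf7 was 6.20-fold higher. Without siCtrl replicate 1 or 3, 3 were higher and 3 lower. Among 32 genes of BMP, TGF-beta and IGF signalling, 9 were higher and 14 lower. Gdf10 was at 2.60, 5.66 and 6.34 against 43.9, 42.2 and 50.3 CPM (-3.21, SE 0.28, edgeR adjusted p = 6.83e-05), Tgfb2 3.11-fold lower and Tgfb1 2.12-fold higher. Id1, a direct BMP target, was at 29.9, 32.8 and 22.7 against 76.7, 80.7 and 69.5 (-1.41, SE 0.14, edgeR adjusted p = 0.000141), and Bmp4 2.26-fold lower. The IGF-binding proteins Igfbp3 and Igfbp4 were 7.23-fold and 6.07-fold higher, Igfbp3 at 161, 155 and 143 against 20.5, 19.97 and 22.9 CPM.

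Among 20 tested Wnt targets and antagonists 4 were higher and 4 lower, with a median of -0.10. These are 20% each, near the 23.8% and 22.7% of all genes tested. Axin2, the direct beta-catenin target, did not pass, at 3.34, 2.58 and 3.15 against 3.44, 2.49 and 3.41 CPM. The secreted antagonist Frzb was at 5.94, 13.9 and 7.27 against 70.0, 74.2 and 70.4 (-2.97, SE 0.28, edgeR adjusted p = 0.000103) and Sfrp2 at 10.2, 14.01 and 12.8 against 2.34, 0.408 and 2.34 (2.79, SE 0.44, edgeR adjusted p = 0.00137). Tnks and Tnks2, the tankyrase genes that the study targets, were not called. Tnks was at 26.3, 19.95 and 65.0 CPM in DMSO against 69.3, 58.6 and 70.5 in siCtrl (-0.83, SE 0.38, edgeR adjusted p = 0.110), with DMSO replicate 3 at the siCtrl level and the other DMSO libraries well below it. Without that library its log2 fold change was -1.51 with an edgeR adjusted p of 8.67e-05, so the call turned on 1 library. Tnks2 was at 122, 115 and 154 against 119, 120.1 and 116 CPM (0.14, SE 0.12, edgeR adjusted p = 0.366).

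Other pathways follow, to be read beside the 23.8% higher and 22.7% lower of all genes tested. Of 22 genes of cholesterol synthesis and uptake 12 were lower and 1 higher, with a median of -0.33, and 8 were lower without siCtrl replicate 1. Of 24 lysosome and autophagy genes 13 were higher and 3 lower, with Ctsl 2.45-fold higher and Ctsd 1.81-fold lower. Of 15 LXR and lipid storage genes tested 7 were higher and 5 lower, with Angptl4, an inhibitor of lipoprotein lipase, at 171, 193 and 135 against 6.34, 6.01 and 7.38 CPM (4.64, SE 0.17, edgeR adjusted p = 1.19e-06). Clock genes were called in 16 of 17 cases, 9 higher and 7 lower: Nfil3 was at 88.7, 88.3 and 70.6 against 16.97, 22.6 and 14.8 CPM (2.19, SE 0.17, edgeR adjusted p = 3.95e-05), Arntl 2.19-fold higher, and Dbp and Per3 2.57-fold and 2.00-fold lower. Harvest hour is not given for either group.

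Of 36 cell cycle genes 10 were higher (27.8%) and 8 lower (22.2%), near the 23.8% and 22.7% of all genes tested. Among them Mki67 was not called, at 90.2, 76.3 and 141 against 118, 96.2 and 123 CPM. Without DMSO replicate 3, 10 were higher and 13 lower, and Mki67 was lower (-0.43, edgeR adjusted p = 0.0176), while without DMSO replicate 1 or siCtrl replicate 1, 2 or 3 between 3 and 5 were lower. Ccnd1, the G1 cyclin that growth factors raise, was at 47.1, 54.0 and 53.4 against 372, 269.9 and 419.9 (-2.78, SE 0.17, edgeR adjusted p = 1.16e-05). Of 20 p53 and senescence genes 7 were higher and 4 lower, with Fas 2.91-fold higher and Perp 4.64-fold lower, and 2 were lower without siCtrl replicate 1 or 3. Of 23 genes of ER folding 4 were higher (17.4%) and 5 lower (21.7%), with 3 lower without siCtrl replicate 1. Hspa5 was not called, at 1281, 1225 and 1280.4 against 1285, 1157 and 1272 CPM. Of 6 tested aryl hydrocarbon receptor targets 3 were higher and 1 lower, and of 10 glucocorticoid-responsive genes 3 were higher and 2 lower, with Errfi1 at 305, 256 and 325 against 35.2, 56.0 and 43.4 CPM. Of 30 ribosomal protein genes 3 were higher and 0 lower, with a median of 0.19. Without DMSO replicate 3, 23 were higher, and without any other single library 0 or 1.

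Of 20 interferon-stimulated genes tested 6 were lower (30%) and 2 higher (10%), against 22.7% and 23.8% of all genes tested. The other 10 of the list were under the filter. Ifit2 was at 5.05, 5.10 and 6.02 against 11.8, 22.0 and 27.1 CPM (-1.90, SE 0.28, edgeR adjusted p = 0.000995). Ifit3 was at 0.306, 0.667 and 0.605 CPM in DMSO and at 0.0938, 14.3 and 29.4 in siCtrl, so siCtrl replicate 1 lay below every DMSO library and the groups overlapped. With one library left out, between 2 (without DMSO replicate 1) and 11 (without siCtrl replicate 2) of the list were called lower, and 5 higher and 3 lower without siCtrl replicate 3. Gbp2 was higher in DMSO, at 19.4, 19.0 and 15.3 against 3.94, 3.75 and 5.72 CPM (1.98, SE 0.19, edgeR adjusted p = 9.90e-05).

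The study supplied 4 further lists, drawn from published targets and from other expression data. Of 90 tested SOX9 targets 69 were lower in DMSO and 10 higher, with a median of -1.30. Arsi, a sulfatase, was at 5.36, 4.58 and 6.02 against 50.9, 41.4 and 42.9 CPM (-3.07, SE 0.14, edgeR adjusted p = 3.09e-06) and the ceruloplasmin gene Cp at 441, 428 and 369 against 112, 137 and 101 (1.82, SE 0.14, edgeR adjusted p = 3.13e-05). Of 225 tested cartilage-signature genes, which are genes higher in nasal and rib chondrocytes than in embryonic fibroblasts, 129 were lower and 42 higher, with a median of -0.73. Fry was 9.13-fold lower and Rcan1, a calcineurin inhibitor, 5.28-fold higher. Of 136 tested genes raised in osteoarthritis 42 were higher (30.9%) and 46 lower (33.8%), with a median of -0.09. Over all genes tested these shares were 23.8% and 22.7%. Lamb3, a laminin chain, was 6.03-fold lower and Ptges higher as above. Of 55 tested genes reduced in osteoarthritis 33 were lower and 7 higher, with a median of -0.85. Nrxn2 was 8.43-fold lower.

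**Figure D3:**
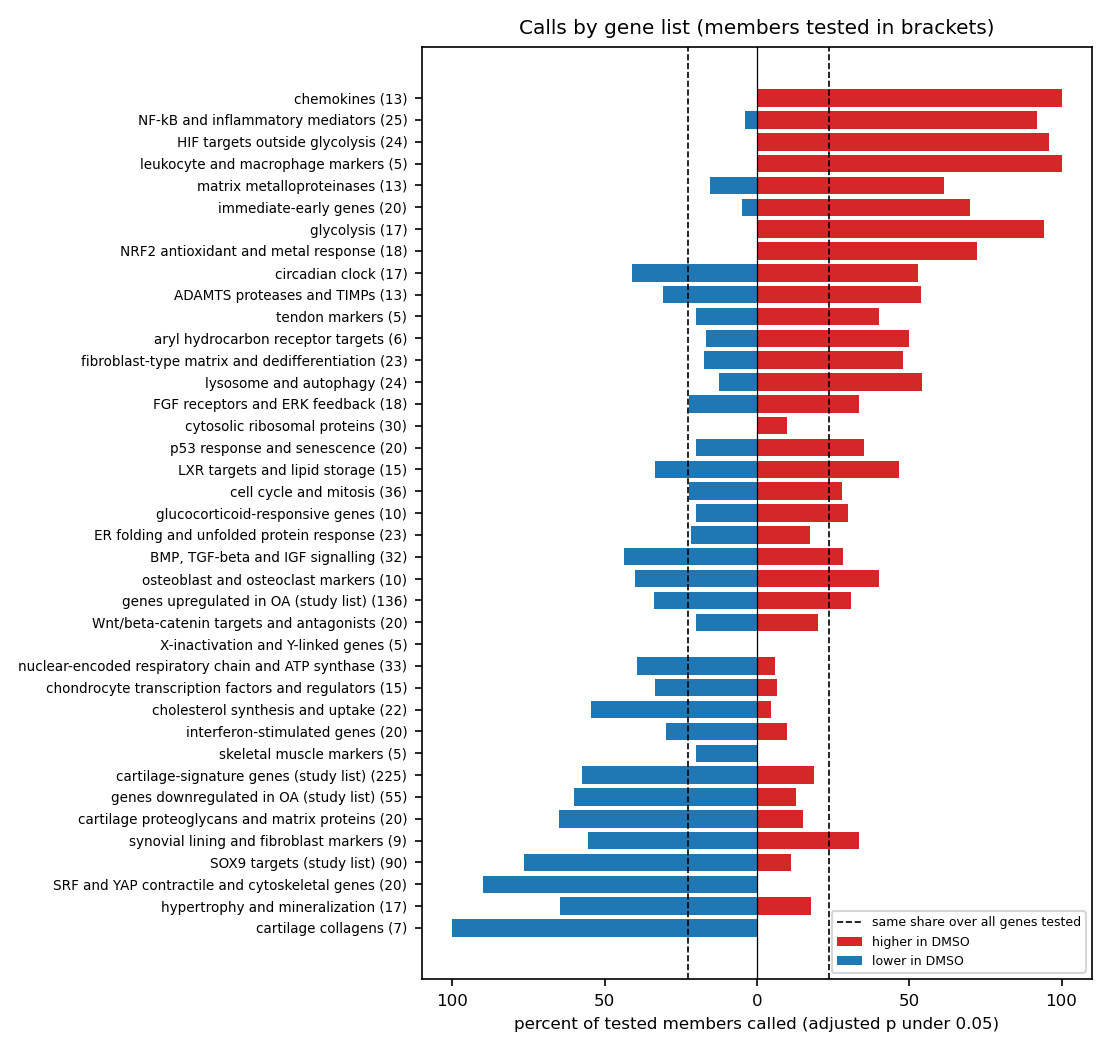
For each gene list, the bar to the right gives the percent of tested members called higher in DMSO and the bar to the left the percent called lower (edgeR, adjusted p under 0.05), with the number tested in brackets and dashed lines at the shares of all genes tested. Chemokines, inflammatory mediators and HIF targets fill the right side at 100%, 92.0% and 95.8%, and cartilage collagens the left side at 100%.

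Ranked by CPM per kilobase of exon, which allows levels of different genes to be compared, the groups shared 2 of their 10 most abundant genes, Col2a1 and the elongation factor Eef1a1. In siCtrl, Col2a1 led at 13398 CPM per kilobase, followed by fibronectin, Fn1, at 4632, Eef1a1 at 4102 and the noncoding RNA H19 at 3107. In DMSO, Lcn2 led at 13835 CPM per kilobase of exon, followed by Fth1 at 9014, Saa3 at 7298, Eef1a1 at 5576 and Mmp3 at 5494. Col2a1 was 9th there at 4679, and Chil1, a chitinase-like glycoprotein of inflamed joints, 10th at 4456 against 20.3 in siCtrl.

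Genes outside the lists also stood at both ends. Among them, Vnn3, Saa1 and Saa2 passed the filter on low counts through DMSO alone, and Kirrel3 through siCtrl alone. Vnn3, a pantetheinase, was at 70.5, 80.4 and 62.9 CPM in DMSO against 0.125, 0.0371 and 0.123 (8.79, SE 0.22, edgeR adjusted p = 2.91e-07). Saa1 and Saa2 had 7514 and 10727 counts in DMSO and 1 each in siCtrl, ratios of 6976 (exact 95% interval 1252 to 275556) and 9958 (1787 to 393368), and the 2 are near-identical copies that counting may have split wrongly. At the other end, Kirrel3, a cell adhesion molecule, was at 0.245, 0.174 and 0.127 against 14.7, 9.46 and 13.1 CPM (-5.67, SE 0.27, edgeR adjusted p = 3.74e-06), Luzp2 at 1.26, 1.13 and 1.08 against 27.7, 28.1 and 28.6 (-4.53, SE 0.12, edgeR adjusted p = 2.91e-07) and Wscd2, which is also on the list of SOX9 targets, at 0.643, 0.754 and 0.797 against 16.4, 22.0 and 15.2 (-4.50, SE 0.20, edgeR adjusted p = 3.09e-06). Rab3b, Adra1b, Myom1 and Mtus2 were 19.4-fold, 16.2-fold, 13.9-fold and 12.9-fold lower, each under 3 CPM in every DMSO library.

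Markers of leukocytes, erythroid cells and skeletal muscle were low in both states, and those of bone, tendon and synovium were not. In bulk samples fewer cells of a type and less RNA per cell cannot be told apart. Of 15 leukocyte and macrophage markers 5 were tested and 5 were higher in DMSO, against 23.8% of all genes tested. The other 10 were under the filter on low counts, so this count may partly follow from the filter. With one library left out 4 or 5 were higher. Summed levels of the list were 36.4 to 46.5 CPM in DMSO against 9.58 to 12.3 in siCtrl. In DMSO most of that was Cd14, at 23.7, 30.6 and 28.4 against 6.001, 5.01 and 5.29 CPM (2.33, SE 0.14, edgeR adjusted p = 9.73e-06), while the pan-leukocyte gene Ptprc had 5 and 7 counts and C1qa and C1qb were at 0 in all 6 libraries. Endothelial markers summed to 80.6 to 92.3 CPM in DMSO and 99.1 to 144 in siCtrl, mostly Eng, with Tie1 at 0 in all 6 libraries. Erythroid markers were under the filter, with Hba-a1, Hbb-bs and Hbb-bt at 0. Skeletal muscle markers summed to at most 3.15 CPM in DMSO and 9.91 in siCtrl, and 1 of 5 tested, Acta1, was lower.

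The next marker lists are short, and their counts are to be read beside the 23.8% higher and 22.7% lower of all genes tested. Synovial lining and fibroblast markers were 3 higher and 5 lower of 9 tested, at 677 to 1383 CPM in DMSO against 184 to 360.0, mostly Prg4. Osteoblast and osteoclast markers were 4 higher and 4 lower of 10 tested, at 5575 to 6471 CPM against 1921 to 3761, mostly Col1a1, with Dcstamp at 0. Tendon markers were 2 higher and 1 lower of 5, at 1721 to 1949 CPM against 1342 to 1730, mostly Fmod, adipocyte markers 1 higher and 2 lower of 3, with the higher one, Fabp4, at 37.8, 49.5 and 36.9 against 4.94, 4.08 and 6.21 CPM. Of 3 tested epidermal and neural or glial markers 1 was lower and 0 higher, and of 5 tested X-inactivation and Y-linked genes 0 were called. Without DMSO replicate 3, 2 of these were lower, Ddx3y (-0.93, edgeR adjusted p = 0.000660) and Kdm5d (-0.75, edgeR adjusted p = 0.0178), and the mean log2(CPM + 1) of the list was 3.86, 3.98 and 4.69 in DMSO against 4.18 to 4.46 in siCtrl. The part of other cell types in the results was not tested.

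Within the groups, the DMSO libraries scattered more than the siCtrl libraries, with a biological coefficient of variation of 0.169 against 0.0982. The genes that varied most in DMSO were high in replicate 3: Zbed6 was at 11.4, 5.77 and 61.1 CPM, Inhba, an activin chain, at 25.7, 13.2 and 112, and Cbl, Lnpep and Hipk2 followed the same order of libraries. Of 83 genes over 2-fold from the mean of the other DMSO libraries in that library, 81 were higher. Without DMSO replicate 3 the log2 fold changes were -2.80 for Zbed6, -2.90 for Cbl, -2.29 for Lnpep, -1.77 for Hipk2 and -1.06 for Inhba. In these genes DMSO replicates 1 and 2 thus lay below siCtrl. Which of the DMSO libraries is the unusual one was not tested. In siCtrl the most variable genes were Ifit3, Lbp, Bst2, Il1rn and Car9. Lbp, which presents bacterial lipopolysaccharide to Cd14, was at 44.3, 10.2 and 12.98 CPM there and at 1119, 2013 and 1157 in DMSO (5.98, SE 0.63, edgeR adjusted p = 0.000170), so its groups stayed apart in spite of the scatter.

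The 2 sets could also be compared in libraries that are not controls, by setting the treated groups against each other. XAV939 over siTnks/2 and IWR-1 over siTnks/2 were fitted over the 9 treated libraries, and these 2 comparisons share the siTnks/2 libraries and also contain the difference between knockdown and inhibitor. For XAV939, 49.0% of 13938 genes were called, 22.9% higher and 26.2% lower, and for IWR-1 38.6%, 17.3% higher and 21.3% lower. Of the 6300 control calls tested there too, 5570 (88.4%) had the same sign in XAV939 over siTnks/2, against 75.3% of all genes tested in both, 3931 (62.4%) were called in the same direction and 147 in the opposite one. In IWR-1 over siTnks/2, 4957 (78.7%) had the same sign, against 69.1% of all genes, 2835 (45.0%) were called in the same direction and 354 in the opposite one. Of the 202 DEGs, 201 kept their sign with XAV939 and 197 with IWR-1. Over those calls the median size of the log2 fold change was 0.78 between the controls, and the median log2 fold change in the direction of the control call was 0.59 for XAV939 and 0.37 for IWR-1.

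Of 25 inflammatory mediators tested 23 were higher in XAV939 and 19 in IWR-1 than in siTnks/2, with 1 lower in each. On the scale that normalizes all 15 libraries together, Nos2 was at 0.140, 0.0724 and 0.0329 CPM in siTnks/2, 417, 404 and 511 in XAV939 and 58.9, 53.7 and 81.4 in IWR-1. Acan was at 15246, 20696 and 14529 CPM in siTnks/2, 1393, 2355 and 1496 in XAV939 and 5405, 6777 and 5369.5 in IWR-1. All 7 cartilage collagens were lower in XAV939 and 6 in IWR-1, and 18 and 16 of 20 SRF and YAP targets. Of 24 HIF targets 19 and 20 were higher, and of 17 glycolysis genes 15 and 12. The ribosomal protein genes, of which 3 of 30 were higher in DMSO than in siCtrl, were higher in 30 cases in XAV939 and 27 in IWR-1 than in siTnks/2, and of 36 cell cycle genes 21 and 13 were higher and 1 was lower in each. The mean log2(CPM + 1) of the cell cycle list was 4.77, 3.51 and 4.91 in siTnks/2, where replicate 2 stood apart, against 5.26 to 5.31 in siCtrl and 4.93 to 5.53 in the inhibitor groups. Without siTnks/2 replicate 2, 23 and 15 of these genes were higher, with medians of 0.71 and 0.41 in place of 0.93 and 0.74. Other lists had other counts than in the control comparison. Of 13 ADAMTS proteases and inhibitors 2 were higher and 5 lower in each, with medians of -0.10 for XAV939 and -0.58 for IWR-1. Of 20 immediate-early genes 8 were higher and 4 lower in XAV939 and 5 and 7 in IWR-1, and of 18 metal and antioxidant genes 6 and 4 were higher.

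**Figure D4:**
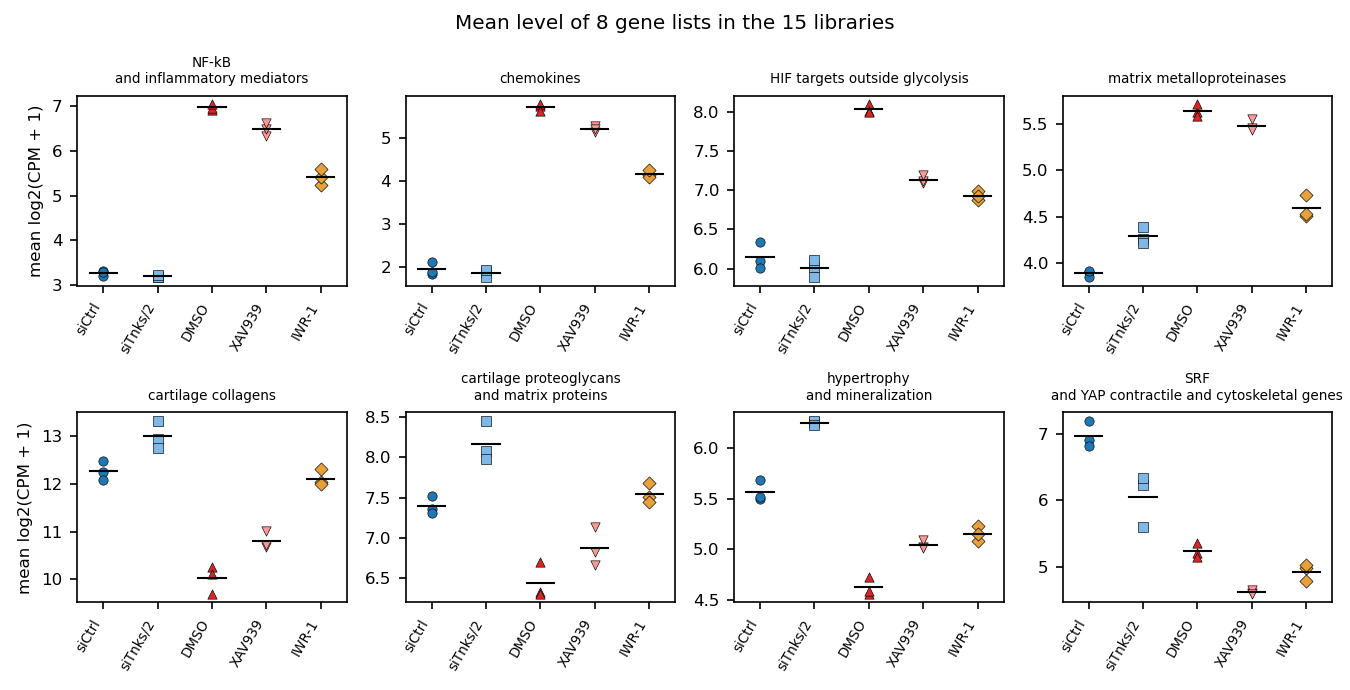
Mean log2(CPM + 1) over the members of 8 gene lists (vertical axis) in each of the 15 libraries, by group, with a bar at the group mean. The mean of the inflammatory mediators was 3.28 in siCtrl, 3.20 in siTnks/2, 6.97 in DMSO, 6.49 in XAV939 and 5.41 in IWR-1, and that of the cartilage collagens 12.27, 13.01, 10.02, 10.81 and 12.12.

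Over the 500 most variable genes of the 15 libraries, the first principal component held 80.2% of the variance and separated the 2 sets, and the second held 10.2% and separated each control group from its treated groups. The IWR-1 libraries lay between siCtrl and DMSO on the first component. Median root mean square log2 distances between libraries were 1.13 between siCtrl and DMSO, 1.06 between siCtrl and XAV939 and 0.885 between siCtrl and IWR-1, and 0.861 between DMSO and IWR-1.

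**Figure D5:**
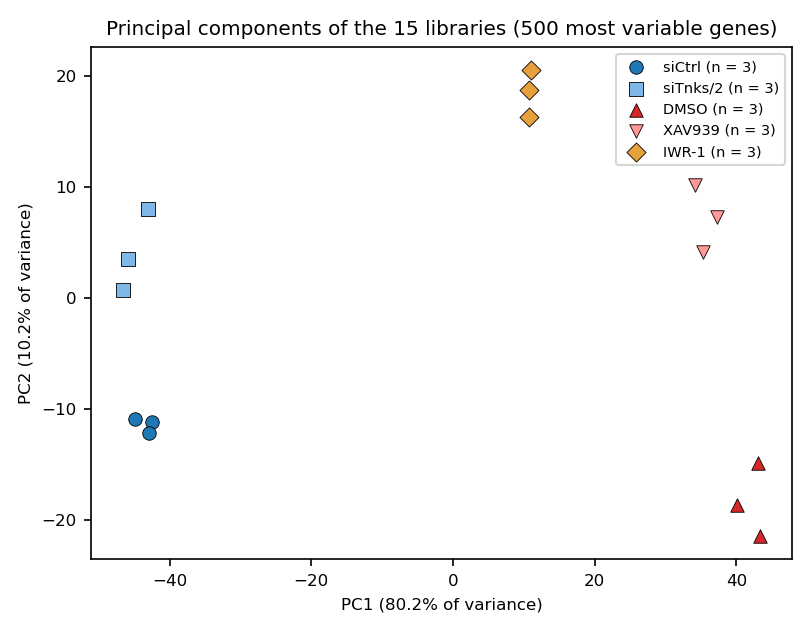
The 15 libraries on their first (horizontal axis, 80.2% of variance) and second (vertical axis, 10.2%) principal components of log2 CPM over the 500 most variable genes, 1 point per library. The siCtrl and siTnks/2 libraries sit on the left, DMSO and XAV939 on the right and IWR-1 between them, and each group of 3 libraries lies apart from the others.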

How the data were processed

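Gene-level read counts of 15 poly(A) libraries (TruSeq Stranded mRNA, HiSeq) were analysed. The authors deposited raw counts in 2 tables, made, per the submitters' processing notes, with Trimmomatic 0.32, TopHat2 2.0.13 against mm10 and HTSeq 0.6.1p1. Which annotation version was counted, and with which strand option, is not given in the sources used here, so genes that overlap another coding gene may share reads (among those named: Adamts4, Car9, Ccnd1, Col9a3, Cp, Dbp, Eng, Fgf7, Hipk2, Hspa5, Mmp28, Per3, Pfkm, Prg4, Runx2, Slc16a3, Tagln, Vcl, Zbed6 and Zbtb20). Both tables list the same 24134 Entrez IDs, of which 24051 matched a RefSeq symbol.

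The 6 control libraries were fitted together with edgeR 4.0.16 (R 4.3.3): filterByExpr, TMM scaling, quasi-likelihood F test, prior count 2 and Benjamini-Hochberg adjustment over 13777 genes, with log2 fold changes positive where DMSO was higher. The study analysed its own comparisons with DESeq2, and its DEG limits were kept. The treated libraries were fitted in the same way. CPM are TMM-scaled and were computed here, and levels per kilobase use GENCODE M21 exon lengths, which 88.0% of genes had. P-values set the difference between the groups against the spread between replicates. They do not separate the agent from delivery, culture time or batch, which cannot be told apart here. Intervals cover counting error only.

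Members and gene lists were chosen with earlier results of these data known. Named genes were Tnks and Tnks2, the 10 highest per kilobase in each group, the 10 each way with the largest fold change past the DEG limits without overlap and with a mean of at least 10 CPM, the first 4 members of each list with the 3 each way with the smallest p, and the 5 most variable genes per group. C1qa, C1qb, C3, Comp, Dcstamp, Epyc, Fmod, Il1b, Ldha, Narf, Pfkm, Slc39a8, Srf, Tie1, Tnf and Vcl were named in addition, after their values were seen. The script was tested on simulated data. Alternatives were RLE and upper-quartile scaling, library sizes without the 20 most abundant genes, other filters, DESeq2 1.42.0, a model of all 15 libraries, a replicate block, glmTreat against a fold of 1.5, and each library left out. Leaving siTnks/2 replicate 2 out of the gene lists of the treated groups was added after seeing the data.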

Additional observations from a re-analysis of the deposited data

How the results depend on the processing

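The count of 6418 calls stayed within 1.5 times under each alternative except glmTreat against a fold of 1.5, which called 2609 genes, and with one library left out it ranged from 4782 to 8297. The count of 202 DEGs was less steady: 513 without a filter, 1096 with DESeq2, 703 with all 15 libraries in 1 model, and between 11 and 287 with one library left out. It was 11, 17 and 23 without siCtrl replicates 1, 2 and 3 and 20, 73 and 287 without DMSO replicates 1, 2 and 3. It was 194 with upper-quartile scaling and 142 with a minimum of 10 counts in every library. Upper-quartile scaling called 6430 genes, 3028 of them higher. The cause of these shifts was not tested.

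Replicate numbers are given to both groups, and deviations of same-numbered libraries from their group means correlated at -0.06, 0.15 and 0.22. Libraries with different numbers correlated at -0.22 to 0.17. Whether same-numbered libraries share pups or a preparation cannot be told from so few pairs. With the replicate block there were 6655 calls and 497 DEGs, Tnks passed at -1.02 (edgeR adjusted p = 0.00765), and the share of control calls with the same sign in the treated groups was 88.3% and 79.0%.

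That share was 99.5% for XAV939 and 97.5% for IWR-1 when DEGs replaced calls, and it ranged from 86.7% to 89.6% and from 77.8% to 78.9% with one treated library left out. Of 307 named genes tested, 254 were called and 222 were called under every alternative. Inhba, at 0.30, lay between -1.06 (without DMSO replicate 3, edgeR adjusted p = 0.0118) and 0.77 (without DMSO replicate 2) with one library left out, and Bst2, at -0.31, between -0.65 (without siCtrl replicate 2) and 0.58 (without siCtrl replicate 3, adjusted p = 0.0480). Eef1a1, Fn1 and Enpp1 lost their calls in several fits with one library left out, and Adamts5 lost it with all 15 libraries in 1 model (adjusted p = 0.177). Of 588 list medians under alternatives 540 moved by less than 1 SD between libraries, and the aryl hydrocarbon receptor list turned from 0.39 to -0.17 without a filter and -0.19 with all 15 libraries. Depth limits Il1b and Ptprc, which lay at or near the floor, and the siCtrl level of Tnf.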
